A study of Mus musculus with 16 samples.

Results

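Tspan8, Kcnab1, Htra4, Igf2bp3, Dnase1, Fam83d and Maats1 were 7 of 21281 genes tested in mouse quadriceps muscle, and they were measured by 8 of 55681 array probes. They were selected on their measured fed levels, by a large difference between mice without muscle FoxO1, FoxO3 and FoxO4 and wild-type mice in the fed state, where 6 of them were lower and Maats1 was higher in the knockout. Those fed values are therefore given as a description, and the knockout was tested in the fasted mice, whose levels were not the measure used for selection. Earlier results of these data were known when the genes were chosen, so the fasted test is not fully independent of the choice. In fasted mice the knockout difference had the same direction for all 7 genes and passed the test for 6 of them, the exception being Fam83d, against 12.5% of all genes tested. Igf2bp3 and Fam83d entered the test only through their fed WT arrays, which took part in the selection. The pass of Igf2bp3 is therefore not separate from that choice. The nearer comparison is the 315 genes that passed in fed mice, of which 69.5% also passed in fasted mice in the same direction. Nothing particular to the 7 genes is read from their count. The test was limma, a linear model fitted to all genes, with Benjamini-Hochberg adjusted p-values over all 21281 genes. Adjusted p-values under 0.05 counted as passing.

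The study arrayed the quadriceps of male mice aged 8 weeks, 1 array per mouse and 4 mice in each of 4 groups. The groups were mFoxO-TKO mice fasted for 24 h in individual cages, WT mice fasted in the same way, mFoxO-TKO mice fed without restriction and WT mice fed without restriction. In mFoxO-TKO mice, Cre recombinase under the human skeletal alpha-actin (HSA) promoter deletes Foxo1, Foxo3 and Foxo4 in skeletal muscle, so that blood vessels, nerve sheath, fat and immune cells of the muscle keep these genes. The WT mice were matched for age, and their alleles at the Foxo genes were not stated in these sources.

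FoxO proteins are transcription factors that bind DNA through a forkhead domain. Insulin signalling through Akt phosphorylates them and keeps them out of the nucleus, and in fasting, when insulin is low, they enter the nucleus and raise genes of protein breakdown and fuel use in muscle. The 7 genes belong to no single pathway: they code for a membrane protein (Tspan8), an auxiliary subunit of a potassium channel (Kcnab1), a pair of secreted enzymes (Htra4, Dnase1), an RNA-binding protein (Igf2bp3), a protein of the mitotic spindle (Fam83d) and a protein of cilia and flagella (Maats1).

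Promoters of 3 of the genes are shown because they carry or lack letters bound by the deleted factors or linked to the cell cycle. The sequences are from RefSeq (GRCm38.p6), run 5′ to 3′ on the gene's own strand, and span 250 bases before to 50 bases after the annotated start. Of the 7 genes, 6 had an entry in the table, with 9 entries in all, and Htra4 had none. In the Tspan8 promoter (chr10:115817034-115817333, plus strand) the capitals mark the letters of the forkhead motif GTAAACA read on the opposite strand.

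Tspan8: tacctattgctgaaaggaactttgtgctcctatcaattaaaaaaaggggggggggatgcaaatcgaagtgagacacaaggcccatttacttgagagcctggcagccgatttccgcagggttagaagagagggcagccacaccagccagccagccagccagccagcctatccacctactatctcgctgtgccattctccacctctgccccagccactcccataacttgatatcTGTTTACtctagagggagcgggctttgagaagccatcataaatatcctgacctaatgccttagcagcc

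This match lay between positions -18 and -12 from the start. GTAAACA, searched on both strands, was in 1199 of 32851 mouse promoters of the same length (3.65%), and among the 9 entries Tspan8 alone held it. A match is a description of letters and not a binding site.

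Fam83d carried the letters of a pair of motifs common in promoters of cell cycle genes, the CCAAT box and the cell cycle homology region TTTGAA. In its promoter (chr2:158767849-158768148, plus strand) capitals mark 3 CCAAT matches on the gene's strand, starting at positions -152, -102 and -72, and 1 TTTGAA match on the opposite strand at -50 to -45.

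Fam83d: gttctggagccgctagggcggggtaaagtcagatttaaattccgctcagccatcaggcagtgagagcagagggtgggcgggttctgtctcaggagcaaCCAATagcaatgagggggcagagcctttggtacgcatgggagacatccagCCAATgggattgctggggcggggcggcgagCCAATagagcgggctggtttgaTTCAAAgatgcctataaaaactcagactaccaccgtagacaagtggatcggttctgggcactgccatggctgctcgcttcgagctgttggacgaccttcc

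CCAAT was in 37.4% of the 32851 promoters and TTTGAA in 17.9%, both strands searched. At least 3 CCAAT matches were in 1107 promoters (3.37%). Both motifs were also in the Igf2bp3 promoter, with 2 TTTGAA matches and 1 CCAAT match, and TTTGAA was found once in 1 of 3 Kcnab1 entries and in the Maats1 promoter.

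For Maats1, the gene that was higher in the knockout, the promoter (chr16:38341811-38342110, minus strand) held no GTAAACA and no CCAAT. Its 1 TTTGAA match, on the opposite strand at -100 to -95, is in capitals.

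Maats1: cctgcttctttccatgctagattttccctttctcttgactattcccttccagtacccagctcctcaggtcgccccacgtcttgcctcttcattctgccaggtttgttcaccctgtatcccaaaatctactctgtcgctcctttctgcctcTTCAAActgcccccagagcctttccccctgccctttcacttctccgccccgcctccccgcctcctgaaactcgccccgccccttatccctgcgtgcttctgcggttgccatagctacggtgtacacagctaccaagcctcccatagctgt

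Levels are given on a log2 scale: log2 of the deposited processed signal minus the log2 of the array's 75th percentile. A level of 0 is the signal of a probe at that percentile, and a difference of 1 is a factor of 2. The software also marks whether a spot was well above background, and below that mark a signal gives only a bound. Levels compare mice for 1 probe and are not comparable between probes. Muscle was profiled as a whole tissue, so fewer cells of a type and less RNA per cell cannot be told apart.

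The 16 arrays had between 45% and 75.2% of their spots well above background, and no saturated spot. The lowest signal well above background ran from -6.37 to -3.86 across arrays, so that dim probes were measurable on some arrays and not on others. The arrays came from 2 slides, slide 1 with replicates 1 and 2 of every group and slide 2 with replicates 3 and 4. The fasted mFoxO-TKO array of replicate 1 stood apart, with a root mean square distance of 0.94 from its group's median, against 0.329 to 0.655 for the other arrays. All 10 muscle fibre markers tested, among them Acta1 and Ckm, were measured and none passed in either feeding state (limma, adjusted p of 0.726 and 0.882 for Acta1 and Ckm in fasted mice).

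The deleted genes were checked first. Foxo1 averaged 1.57 ± 0.06 in fasted mFoxO-TKO and 4.99 ± 0.40 in fasted WT muscle (SD, n = 4 each), a difference of -3.43 ± 0.21 (SE; limma, adjusted p = 1.16e-07). In fed mice its means were 0.91 ± 0.41 in mFoxO-TKO and 2.69 ± 0.19 in WT (SD, n = 4 each), a difference of -1.78 ± 0.21 (limma, adjusted p = 0.000307). No mFoxO-TKO array measured Foxo4 above background and all 8 WT arrays did. By its brighter probe Foxo4 was at least 6.25-fold lower in fasted (limma, adjusted p = 1.08e-07) and at least 6.87-fold lower in fed knockout muscle (limma, adjusted p = 3.38e-07). By its other probe it was at least 4.47-fold lower in fasted (limma, adjusted p = 1.66e-07) and at least 5.23-fold lower in fed knockout muscle (limma, adjusted p = 9.53e-07). Foxo3 did not pass, with differences of -0.78 ± 0.27 in fasted mice (limma, adjusted p = 0.0716) and 0.71 ± 0.27 in fed mice (adjusted p = 0.264). The position of these probes in the transcripts was not used here, and one that lies outside the deleted exons would check nothing.

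Across all 21281 genes, 2652 passed in fasted mice (12.5%), 1154 of them higher in mFoxO-TKO (5.42%) and 1498 lower (7.04%). With the percentile taken over probes well above background on all arrays, 59.9% of the calls were higher, and 56.3% were so in the authors' deposited values, against 43.5% in the main analysis. In fed mice 315 genes passed (1.48%), 138 higher (0.648%) and 177 lower (0.832%). Over both directions, 219 of the 315 passed in fasted mice in the same direction (69.5%, or 1.03% of all genes). Of the 177 genes lower in fed mFoxO-TKO muscle, 129 also passed as lower in fasted mice (72.9%), and of the 138 higher, 90 also passed as higher (65.2%). Of the 7 genes chosen, 5 of the 6 lower ones and Maats1 passed in fasted mice in the same direction. The share is near that of the other genes called in fed mice, and nothing particular to the 7 genes is read from it.

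**Figure D1:**
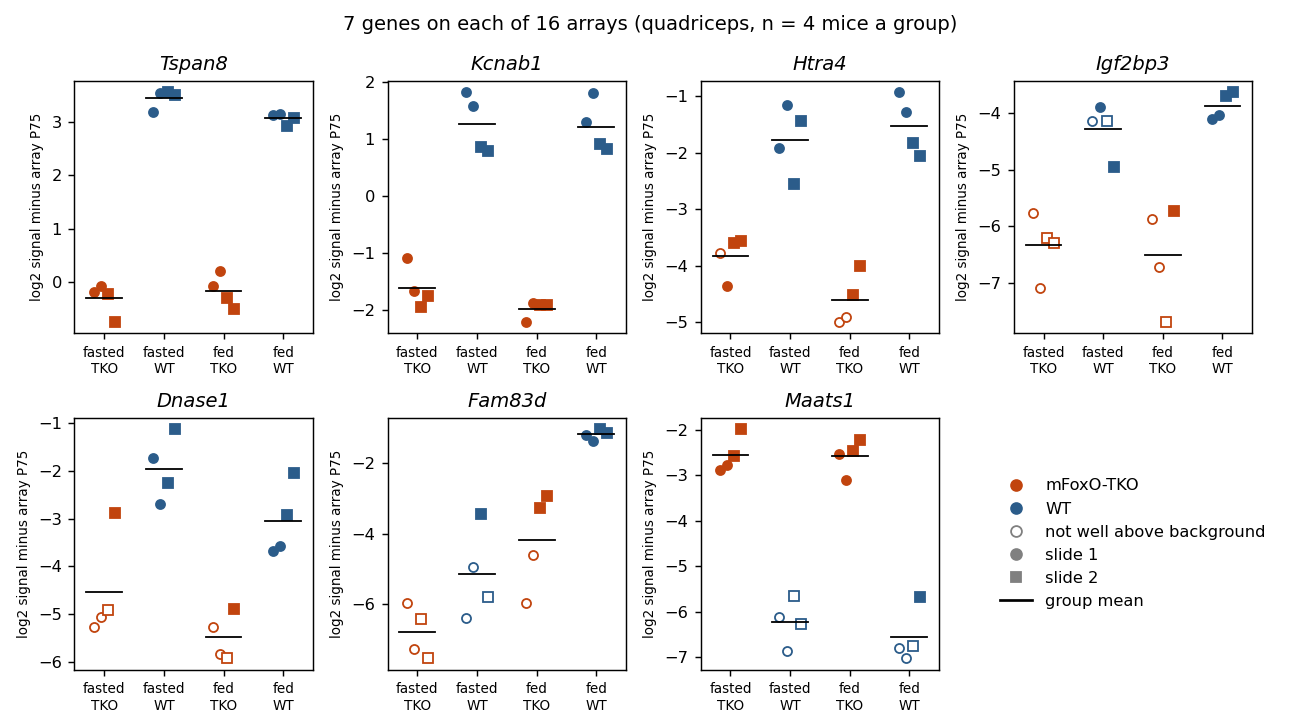
Levels of the 7 genes on each of the 16 arrays (log2 signal minus the array's 75th percentile), with mFoxO-TKO in orange and WT in blue, circles for slide 1, squares for slide 2, open symbols for spots not well above background and a line at the group mean. The mFoxO-TKO and WT arrays are apart in both feeding states for every gene except Fam83d, whose fasted arrays overlap between -6.40 and -5.96.

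Tspan8 (NM_146010), a tetraspanin that organises other proteins in the cell membrane, was lower in mFoxO-TKO muscle in both feeding states. Its levels were -0.19, -0.06, -0.21 and -0.74 in the 4 fasted mFoxO-TKO mice, against 3.19, 3.53, 3.54 and 3.49 in the 4 fasted WT mice. In fed mice they were -0.08, 0.20, -0.30 and -0.50 in mFoxO-TKO and 3.12, 3.15, 2.92 and 3.07 in WT. Every knockout array was far below every WT array, and all 16 spots were well above background. Tspan8 fell 13.3-fold in fasted knockout muscle, a log2 difference of -3.74 ± 0.17 (SE; limma, adjusted p = 1.17e-08), and the fed difference was -3.23 ± 0.17. Within the slides the fasted difference was -3.48 on slide 1 (adjusted p = 0.00314) and -3.99 on slide 2 (limma, adjusted p = 0.00124), with 2 mice per group on each. By mean level the order was fasted WT at 3.44 ± 0.17, fed WT at 3.06 ± 0.10, fed mFoxO-TKO at -0.17 ± 0.30 and fasted mFoxO-TKO at -0.30 ± 0.30 (SD, n = 4 each). The knockout groups differed from each other by less than their spread, whereas the fasted WT arrays did not overlap the fed WT arrays.

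No other tetraspanin tested passed as lower. Tspan15 came closest, with -0.75 ± 0.24 in fasted knockout muscle (SE; limma, adjusted p = 0.0505). Of 30 listed, 26 were tested, and 2 rose in fasted knockout muscle, with a median difference of 0.07 against 0.01 over all genes. Tspan9 rose by 0.84 ± 0.21 (limma, adjusted p = 0.0167) and Rom1, a tetraspanin known from photoreceptors, by 0.68 ± 0.17 (adjusted p = 0.0166). In fed mice none of the 26 passed, with a median of 0.04. Tspan8 is best known from epithelia. Epcam, a defining epithelial marker, was well above background on 1 of 16 arrays, and neither of the 2 epithelial genes tested passed. Those were Krt18, a keratin well above background on all 16 arrays, with differences of 0.08 in fasted (limma, adjusted p = 0.952; 1 mFoxO-TKO spot was left out) and 2.15 in fed mice (adjusted p = 0.0646), and Krt19, with -0.02 in fasted and -0.37 in fed mice. Their summed level ran from -1.92 to -0.70 on 3 fasted mFoxO-TKO arrays and -1.58 to -0.93 in fasted WT, and from -1.63 to 0.46 in fed mFoxO-TKO and -2.62 to -1.71 in fed WT, and its part in the Tspan8 difference was not tested.

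Kcnab1 (NM_010597) codes for the beta-1 subunit of Kv1 potassium channels, which speeds the inactivation of the channel. Its levels in fasted mice were -1.08, -1.66, -1.95 and -1.75 in mFoxO-TKO, against 1.82, 1.58, 0.86 and 0.79 in WT. The fed mFoxO-TKO mice had -2.20, -1.87, -1.92 and -1.91 and the fed WT mice 1.30, 1.82, 0.92 and 0.83. The genotypes did not overlap in either state, all 16 spots were well above background, and the WT arrays of slide 1 were higher than those of slide 2. Kcnab1 fell 7.34-fold in fasted knockout muscle, a log2 difference of -2.88 ± 0.27 (SE; limma, adjusted p = 5.91e-06), with a fed difference of -3.19 ± 0.27. The fasted difference was -3.08 within slide 1 (adjusted p = 0.0132) and -2.67 within slide 2 (limma, adjusted p = 0.000983). Fasted minus fed means were 0.36 ± 0.27 in mFoxO-TKO and 0.05 ± 0.27 in WT. On the fasted mFoxO-TKO array of replicate 1, which had the highest knockout level, the bright spots around the Kcnab1 spot read 0.74 above the group's median. The order of the means was fasted WT at 1.26 ± 0.52, fed WT at 1.22 ± 0.45, fasted mFoxO-TKO at -1.61 ± 0.37 and fed mFoxO-TKO at -1.98 ± 0.15 (SD, n = 4 each), and within each genotype the arrays of the feeding states overlapped.

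Of 10 other Kv1 subunits, 6 were tested and none passed in either state by limma, with median differences of 0.13 in fasted and -0.14 in fed mice. The pore-forming subunits Kcna4, Kcna5, Kcna6 and Kcna7, well above background on every array, had fasted differences of 0.22, -0.17, 0.13 and 0.14. The remaining beta subunits, Kcnab2 and Kcnab3, were too dim to test.

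Htra4 (NM_001081187) codes for a secreted serine protease of the HtrA family, known in humans mainly from placenta. In fasted mFoxO-TKO mice its levels were -3.78, -4.36, -3.60 and -3.57, against -1.92, -1.16, -2.56 and -1.45 in fasted WT mice. In fed mFoxO-TKO mice they were -4.99, -4.91, -4.51 and -4.00, and in fed WT mice -0.94, -1.27, -1.82 and -2.06. No knockout array reached the lowest WT array in either state, and 3 fasted and 2 fed knockout arrays of 4 were well above background. Htra4 fell in fasted knockout muscle, with a log2 difference of -2.06 ± 0.33 (SE; limma, adjusted p = 0.000621), and the fed difference was -3.08 ± 0.33. No fold is given, since some knockout spots were not measured. In the authors' deposited values the differences were smaller, -1.43 in fasted (limma, adjusted p = 0.000509) and -1.97 in fed mice, as they were with another background correction, normexp, at -1.52 (adjusted p = 0.00888) and -2.38. Within slide 1 the fasted difference was -2.53 (adjusted p = 0.0209), and within slide 2 it was -1.58 and did not pass (limma, adjusted p = 0.0595). Fasting changed the mean by 0.77 ± 0.33 in mFoxO-TKO and by -0.25 ± 0.33 in WT, and the fasted minus fed change in the knockout difference was 1.02 ± 0.46. These values share the fed arrays on which the gene was chosen and were not tested. From high to low the means were -1.53 ± 0.51 in fed WT, -1.77 ± 0.61 in fasted WT, -3.83 ± 0.37 in fasted mFoxO-TKO and -4.60 ± 0.45 in fed mFoxO-TKO (SD, n = 4 each), and the arrays overlapped between the WT groups and between the knockout groups. The related proteases Htra1, Htra2 and Htra3 were all tested and none passed in either state by limma, with fasted differences of -0.61 ± 0.34, 0.08 ± 0.10 and 0.30 ± 0.12.

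Dnase1 (NM_010061) codes for a secreted endonuclease made mainly in exocrine glands and kidney. Its levels in fasted mice were -5.27, -5.06, -4.91 and -2.87 in mFoxO-TKO, against -1.73, -2.70, -2.26 and -1.12 in WT. In fed mice they were -5.26, -5.84, -5.93 and -4.89 in mFoxO-TKO, against -3.68, -3.58, -2.93 and -2.03 in WT. The genotypes did not overlap in either state, but the fasted mFoxO-TKO mouse of replicate 4 was close to the WT mice. In each knockout group only the array of replicate 4 was well above background. Dnase1 fell in fasted knockout muscle, with a log2 difference of -2.57 ± 0.52 (SE; limma, adjusted p = 0.00363), and the fed difference was -2.43 ± 0.52. Since 3 of 4 spots in each knockout group were not measured, no fold is given. The fasted difference was -2.95 within slide 1 (adjusted p = 0.0185) and -2.20 within slide 2, where it did not pass (limma, adjusted p = 0.16). With normexp it was -1.37 and did not pass (limma, adjusted p = 0.0648), and in the authors' deposited values it was -1.58 (adjusted p = 0.013). The fed differences by these were -1.54 and -1.23. Fasted means were higher than fed means in both genotypes, by 0.95 ± 0.52 in mFoxO-TKO and 1.101 ± 0.515 in WT. The order was fasted WT at -1.95 ± 0.68, fed WT at -3.05 ± 0.76, fasted mFoxO-TKO at -4.53 ± 1.11 and fed mFoxO-TKO at -5.48 ± 0.49 (SD, n = 4 each), and the arrays of each neighbouring pair in this order overlapped.

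Among other deoxyribonucleases 1 fell. Of 9 listed, 6 were tested, and Dnase1l1, a close relative expressed in muscle, fell by 0.38 on the log2 scale in fasted knockout muscle (SE 0.11; limma, adjusted p = 0.0377). None of the 6 passed in fed mice, and the medians were -0.23 in fasted and -0.06 in fed mice. Among 6 markers of kidney tubule and exocrine gland, 2 were tested, and Amy2a5, a pancreatic amylase from a family of near-identical copies, fell by 1.81 in fasted (SE 0.21; limma, adjusted p = 4.92e-05) and fell by 1.44 in fed knockout muscle (adjusted p = 0.00257). Because the copies share sequence, the gene behind this probe is uncertain. The other gene tested was Slc34a1, a phosphate transporter of kidney tubule, with differences of -0.11 in fasted (limma, adjusted p = 0.809) and 0.25 in fed mice (adjusted p = 0.788), well above background on 15 of 16 arrays. A summed level adds the signals of several probes and follows the brightest. For the tested genes of this list it ran from -1.78 to -1.04 in fasted mFoxO-TKO and 0.04 to 0.13 in fasted WT, and from -1.70 to -1.07 in fed mFoxO-TKO and -0.41 to 0.01 in fed WT. Umod, which defines kidney tubule, was well above background on no array, and Prss2, a pancreatic trypsinogen, on 1 of 16. The part of other cell types in the Dnase1 difference was not tested.

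Igf2bp3 (NM_023670) codes for an RNA-binding protein of embryonic tissues that binds Igf2 mRNA among others and is low in most adult tissues. Its levels were -5.77, -7.08, -6.20 and -6.29 in fasted mFoxO-TKO mice, against -4.14, -3.88, -4.13 and -4.95 in fasted WT mice. In fed mice they were -5.86, -6.72, -7.68 and -5.73 in mFoxO-TKO, against -4.09, -4.02, -3.70 and -3.63 in WT. The WT arrays were higher without overlap in both states, yet the gene was well above background on all arrays of fed WT only. It was kept for the test through fed WT alone, a group on which it was chosen. It was well above background on 0 of 4 fasted mFoxO-TKO, 2 of 4 fasted WT and 1 of 4 fed mFoxO-TKO arrays. The fasted difference was -2.06 ± 0.39 (SE; limma, adjusted p = 0.00221). No fold or bound is given, since spots of both fasted groups were not well above background. The fed difference was -2.64 ± 0.39. Within slide 1 the fasted difference was -2.42 (adjusted p = 0.0583), within slide 2 it was -1.71 (adjusted p = 0.165), and with normexp background correction it was -0.69 (limma, adjusted p = 0.476), so the call ended in each of these. The means ran from -3.86 ± 0.23 in fed WT and -4.27 ± 0.47 in fasted WT to -6.34 ± 0.55 in fasted mFoxO-TKO and -6.50 ± 0.90 in fed mFoxO-TKO (SD, n = 4 each), and within each genotype the arrays of the feeding states overlapped.

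Among Igf2bp relatives, Lin28 factors and known RNA targets, 8 of 10 were tested, and the medians over them were 0.42 in fasted and 0.70 in fed mice. Myc, whose mRNA the family stabilises, fell by 1.09 in fasted knockout muscle (SE 0.26; limma, adjusted p = 0.0106) and had a difference of 0.70 in fed mice (adjusted p = 0.252). Igf2, a fetal growth factor, rose by 1.45 ± 0.32 in fed knockout muscle (limma, adjusted p = 0.0341) and had a difference of 0.46 in fasted mice (adjusted p = 0.417). Igf2bp2, the family member expressed in adult muscle, had differences of 0.96 ± 0.37 in fasted (limma, adjusted p = 0.111) and 1.004 ± 0.367 in fed mice (adjusted p = 0.253) and did not pass. Igf2bp1 was well above background on no array.

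Fam83d (NM_027975), a protein that brings casein kinase 1 alpha to the mitotic spindle, was lower in the knockout in fed mice and near the limit of detection in fasted mice of both genotypes. Its levels were -5.96, -7.28, -6.42 and -7.53 in fasted mFoxO-TKO mice, against -6.40, -4.94, -3.43 and -5.78 in fasted WT mice. In fed mice they were -5.95, -4.60, -3.27 and -2.92 in mFoxO-TKO, against -1.18, -1.37, -1.03 and -1.13 in WT. The fed WT arrays were close together and above all 12 others, the fed mFoxO-TKO arrays spread widely, and the fasted groups overlapped. The gene was well above background on 0 of 4 fasted mFoxO-TKO, 1 of 4 fasted WT, 2 of 4 fed mFoxO-TKO and 4 of 4 fed WT arrays, and it was kept for the test through fed WT alone. In fasted mice the difference was -1.66 ± 0.66 and did not pass (SE; limma, adjusted p = 0.125), and with both groups near background no fold is given. Within slide 1 it was -0.95 (adjusted p = 0.499) and within slide 2 it was -2.37 (limma, adjusted p = 0.129). The fed difference was -3.01 ± 0.66, with values of -4.00 within slide 1 and -2.02 within slide 2. Fasted minus fed means were -2.61 ± 0.66 in mFoxO-TKO and -3.96 ± 0.66 in WT, and the fasted minus fed change in the knockout difference was 1.35 ± 0.93. The order of the means was fed WT at -1.18 ± 0.14, fed mFoxO-TKO at -4.19 ± 1.38, fasted WT at -5.14 ± 1.29 and fasted mFoxO-TKO at -6.80 ± 0.74 (SD, n = 4 each), with the middle 2 groups closer than their spread.

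**Figure D2:**
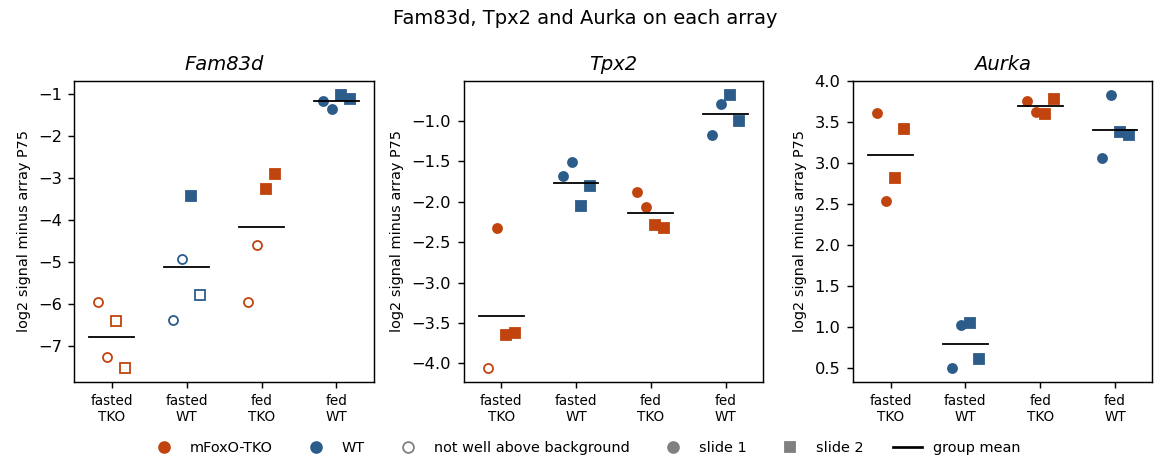
Levels of Fam83d, Tpx2 and Aurka on each array (log2 signal minus the array's 75th percentile), with mFoxO-TKO in orange, WT in blue, circles for slide 1, squares for slide 2, open symbols for spots not well above background and a line at the group mean. Tpx2 lies lower in mFoxO-TKO than in WT in both feeding states, whereas Aurka lies between 2.54 and 3.62 in fasted mFoxO-TKO and between 0.51 and 1.06 in fasted WT.

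Of the Fam83 family and its spindle partners, 9 of 12 were tested, with medians of 0.06 in both feeding states. Tpx2, a spindle assembly factor, passed in both states: its levels were -4.06, -2.32, -3.64 and -3.62 in fasted mFoxO-TKO mice, against -1.68, -1.51, -2.05 and -1.81 in fasted WT mice. All knockout arrays were below all WT arrays, and Tpx2 fell by 1.65 on the log2 scale (SE 0.28; limma, adjusted p = 0.00108). Fed mice had Tpx2 levels of -1.88, -2.06, -2.29 and -2.32 in mFoxO-TKO, against -1.174, -0.793, -0.677 and -1.002 in WT, and it fell by 1.23 in fed knockout muscle (SE 0.28; limma, adjusted p = 0.0421). Csnk1a1, the kinase that Fam83d binds, fell by 0.60 in fasted knockout muscle (SE 0.15; limma, adjusted p = 0.0186) and had a difference of -0.001 in fed mice. Hmmr, the spindle protein through which Fam83d is placed, had differences of 0.20 ± 0.11 in fasted (limma, adjusted p = 0.299) and 0.06 ± 0.11 in fed mice.

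Of 8 markers of dividing cells, 7 were tested and none passed as lower. Aurka, a mitotic kinase that Tpx2 activates, rose by 2.30 ± 0.23 in fasted knockout muscle (limma, adjusted p = 9.8e-06) while its fed difference was 0.28 ± 0.23 (adjusted p = 0.773). The other 6 did not pass in either state, and their fed differences ran from 1.48 for Plk1 to 2.1 for Ccnb1. Ccnb1 and Cdk1 were well above background on 2 of 4 fed WT arrays. Medians over the 7 were 0.63 in fasted and 1.79 in fed mice. Mki67 had differences of 0.95 ± 0.65 in fasted and 1.63 ± 0.65 in fed mice. The summed level of the list, in which Aurka alone ran from 2.54 to 3.62 in fasted mFoxO-TKO and 0.51 to 1.06 in fasted WT, ran from 2.94 to 3.70 in fasted mFoxO-TKO and 1.16 to 1.48 in fasted WT, and from 3.91 to 4.40 in fed mFoxO-TKO and 3.18 to 3.92 in fed WT. Its part in the Fam83d values was not tested.

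Maats1 (NM_001081025), also called Cfap91, belongs to the radial spoke of motile cilia and flagella and was the only one of the 7 that was higher in the knockout. Its levels were -2.89, -2.79, -2.57 and -1.99 in fasted mFoxO-TKO mice, against -6.13, -6.86, -5.66 and -6.27 in fasted WT mice. In fed mFoxO-TKO mice they were -2.54, -3.12, -2.47 and -2.22, and in fed WT mice -6.79, -7.02, -6.74 and -5.67. The gene was well above background on all 8 knockout arrays, and on 1 of the 8 WT arrays. In fasted knockout muscle Maats1 was at least 4.98-fold higher, with a measured difference of 3.66 ± 0.32 (SE; limma, adjusted p = 3.1e-06), and the fed difference was 3.97 ± 0.32. With normexp background correction the differences were 2.64 in fasted (limma, adjusted p = 0.000318) and 1.70 in fed mice. Within slide 1 the fasted difference was 3.65 (adjusted p = 0.0109) and within slide 2 it was 3.68 (limma, adjusted p = 0.00738). The feeding states differed by less than their spread within each genotype: the knockout means were -2.56 ± 0.40 fasted and -2.59 ± 0.38 fed, and the WT means were -6.23 ± 0.49 fasted and -6.56 ± 0.60 fed (SD, n = 4 each).

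A further Maats1 probe did not share this difference. The probe A_52_P375435 was well above background on 1 of 16 arrays, and its levels were between -7.22 and -4.59 in fasted mFoxO-TKO and between -7.87 and -5.80 in fasted WT mice. Its differences were 0.83 ± 0.52 in fasted mice (limma, adjusted p = 0.367) and 0.41 ± 0.52 in fed mice. Where the probes A_51_P282616 and A_52_P375435 lie in the transcript was not used here, and the rise of Maats1 rests on A_51_P282616 alone.

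Among other cilia genes 1 rose. Of 18 listed, 5 were tested, and Rsph1, a protein of the radial spoke head, rose by 1.74 ± 0.17 in fasted (limma, adjusted p = 8.17e-06) and by 1.11 ± 0.17 in fed knockout muscle (adjusted p = 0.00293). Its levels were 0.01, 0.13, 0.01 and 0.08 in fasted mFoxO-TKO mice, against -1.87, -1.09, -2.12 and -1.65 in fasted WT mice. The fed mFoxO-TKO mice had 0.98, 0.76, 0.88 and 0.95, against -0.06, -0.30, -0.35 and -0.18 in fed WT mice. The genotypes did not overlap in either state, while Rsph9 and Hydin had fasted differences of -0.40 ± 0.14 (limma, adjusted p = 0.0708) and 0.57 ± 0.31 (adjusted p = 0.283). Medians over the 5 were 0.51 in fasted and 0.07 in fed mice. Foxj1, the factor that drives motile cilia, was well above background on 2 of 16 arrays and the axonemal dynein Dnah9 on none. Of the ciliated cell and sperm markers 3 of 6 were tested, and Tekt1, a tektin of axonemes, fell by 1.06 in fasted knockout muscle (SE 0.29; limma, adjusted p = 0.0242). The summed level of that list ran from 0.08 to 0.73 in fasted mFoxO-TKO and 0.52 to 1.91 in fasted WT, and from 0.01 to 0.52 in fed mFoxO-TKO and 0 to 0.37 in fed WT.

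The knockout differences of the 2 feeding states can be set side by side. Fasted and fed differences were 3.66 and 3.97 for Maats1, -3.74 and -3.23 for Tspan8, -2.88 and -3.19 for Kcnab1, -2.57 and -2.43 for Dnase1, and -2.06 and -2.64 for Igf2bp3. They were -2.06 and -3.08 for Htra4, and -1.66 and -3.01 for Fam83d. With normexp the pairs moved most for Maats1, to 2.64 and 1.70, and for Igf2bp3, to -0.69 and -1.44. The order of the states turned for Maats1 and for Dnase1, which then stood at -1.37 and -1.54. Since the fed values chose the genes, these gaps were not tested. Without the fasted mFoxO-TKO array that stood apart, the fasted differences were 3.78 for Maats1, -3.78 for Tspan8, -3.05 for Kcnab1, -2.33 for Dnase1, -2.25 for Igf2bp3, -2.07 for Htra4 and -1.94 for Fam83d, and the same 6 genes passed. The fit shared its estimate of the spread with the fed arrays, and with the fasted arrays alone the same 6 genes passed, with the highest adjusted p at 0.0329 for Dnase1 (limma), while Fam83d did not (adjusted p = 0.191). In fasted mice Tspan8 stood at place 13 and Kcnab1 at place 41 among all 21281 genes by the size of the fall. Groups did not overlap for 6 of the 7 genes in fasted mice and for all 7 in fed mice, against 16% and 10% of all genes. The selection on the fed arrays favours the fed count. It may also raise the fasted count, since 69.5% of the genes called in fed mice passed in fasted mice in the same direction. Nothing particular to the 7 genes is read from these counts.

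**Figure D3:**
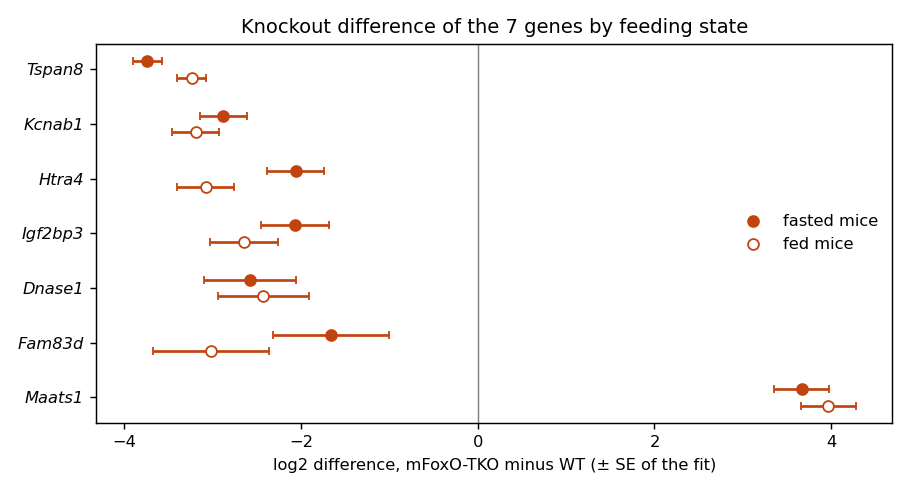
Knockout difference of each gene (log2, mFoxO-TKO minus WT, with the SE of the fit) in fasted mice (filled) and fed mice (open). Tspan8 lies at -3.74 fasted and -3.23 fed and Maats1 at 3.66 and 3.97, and the fasted value is nearer 0 for Fam83d (-1.66) and Htra4 (-2.06).

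**Figure D4:**
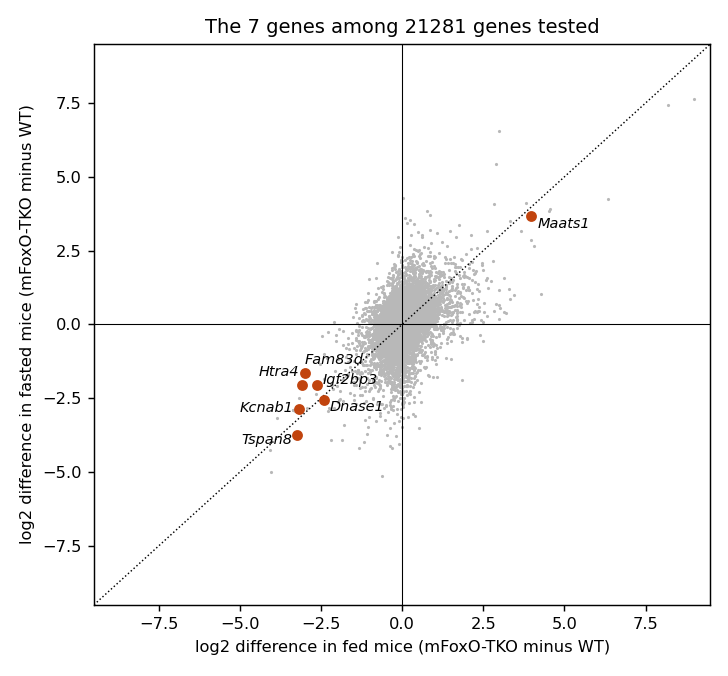
Knockout difference of all 21281 genes tested (log2, mFoxO-TKO minus WT), fed mice on the horizontal and fasted mice on the vertical axis, with the 7 genes in orange and a dotted line where both are equal. The 6 lower genes sit at the lower left edge and Maats1 at the upper right, as the fed values that chose them require on the horizontal axis.

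Likeness of pattern was measured as the root mean square difference over the 16 arrays after each gene's mean was removed. It lay between 0.506 and 0.865 among Tspan8, Kcnab1, Htra4 and Igf2bp3, with Tspan8 and Kcnab1 closest and Tspan8 and Igf2bp3 farthest apart. Dnase1 lay between 0.951 and 1.071 from each of these 4, and Fam83d between 1.88 and 2.53 from all 5. Nearest to Tspan8 among 12030 genes were Foxo4 at 0.516, Pik3ip1 at 0.575 and Pfkfb3 at 0.609, and nearest to Kcnab1 were Pik3ip1 at 0.511, Maob at 0.606 and Abca4 at 0.64. Htra4 was nearest to Maob at 0.662, Pik3ip1 at 0.686 and Slc23a3 at 0.733. Pik3ip1 is an inhibitor of PI3 kinase, Pfkfb3 makes a fructose bisphosphate that speeds glycolysis, and Maob is a monoamine oxidase of mitochondria. Pik3ip1 averaged 1.47 ± 0.34 in fasted mFoxO-TKO and 4.40 ± 0.25 in fasted WT, and 1.08 ± 0.26 in fed mFoxO-TKO and 3.38 ± 0.17 in fed WT (SD, n = 4 each).

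Igf2bp3 was nearest to Ccrl2, a chemerin-binding receptor, at 0.631, Snph, a mitochondrial anchor of axons, at 0.643 and Abca4, a lipid transporter known from photoreceptors, at 0.672. For Dnase1 the nearest genes were Slc23a3 at 0.669, Ctxn3 at 0.704 and Abca4 at 0.709. Fam83d had no close match: Cntnap2, a neuronal adhesion protein, lay at 1.188, Phex, an endopeptidase that controls phosphate, at 1.218 and Nnat, an imprinted membrane protein, at 1.239. Cntnap2 averaged -3.86 ± 0.47 in fasted mFoxO-TKO and -2.85 ± 0.40 in fasted WT, and -2.67 ± 0.35 in fed mFoxO-TKO and -0.26 ± 0.24 in fed WT (SD, n = 4 each), so that fed WT was highest as for Fam83d. Among the genes nearest to Maats1 were Fgl1, a fibrinogen-like protein made mainly by liver, at 0.637 and Ren1, renin, at 0.681, whose near-identical copy Ren2 leaves the source of its signal uncertain. Fgl1 averaged -1.88 ± 0.77 in fasted mFoxO-TKO and -5.79 ± 0.46 in fasted WT, and -1.95 ± 0.55 in fed mFoxO-TKO and -6.49 ± 0.72 in fed WT (SD, n = 4 each). These likenesses rest partly on the fed arrays that chose the 7 genes and are a description.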

How the data were processed

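Quadriceps RNA of 16 mice, 4 per group, was labelled with Cy3 and hybridised to 1-colour Agilent arrays on 2 slides, 1 array per mouse. Per the file headers, Feature Extraction 11.0.1.1 quantified the spots, whereas the submitters' processing notes name 9.5. Per the file headers, the deposited intensities (processed signals) had the background subtracted and the spatial trend of each array removed, with no scaling between arrays. Deposited 0 or 1 marks flag spots as well above background, saturated, uneven or outlying. The authors' deposited value table holds scores for 18324 spots, proportional to the processed signal by a factor per array and rounded.

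Here repeats of 59305 spots were averaged to 55681 probes, uneven and outlying spots were left out, and log2 signals were taken minus each array's 75th percentile. A probe was kept if all arrays of 1 group or more marked it well above background (28572 probes). The brightest kept probe stood for a gene. Symbols came from RefSeq accessions matched to a GRCm38.p6 table (28331 probes matched), whereas the arrays were designed on mm9, so array coordinates are not given. A model of 4 group means on 16 arrays was fitted with limma 3.58.1 in R 4.3.3 (12 residual and 2.53 prior degrees of freedom), with Benjamini-Hochberg adjustment over 21281 genes. It was tested on simulated data. A bound, written as at least N-fold, sets the brighter group's mean against the lowest signals well above background on the dimmer group's arrays.

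Replicate numbers may pair the samples: deviations of same-numbered arrays from their group means correlated by 0.105 to 0.303 between fasted genotypes and by 0.164 to 0.329 between fed ones, and slides hold numbers in pairs. Same-numbered arrays always share a slide, so these correlations alone cannot tell pairing from a slide difference. The labels do not say what a number marks. P-values measure the spread between these mice.

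Genes named were the 7 genes with every probe, the 3 deleted genes, up to 4 passing genes of each of 7 family lists, up to 2 passing genes of each of 13 cell type marker lists, and for each of the 7 the 3 nearest patterns, of which 1 gene is not reported here. Other genes named in a list were chosen after their values were seen. The 7 genes and all lists were chosen with earlier results of these data known. Lists in which no marker passed were skeletal muscle fibre, epithelial cell, endothelial cell, fibroblast, Schwann cell, red blood cell and T and B cell. In the fat cell list Car3 rose by 0.50 in fasted knockout muscle (limma, adjusted p = 0.0421), but the median over that list was -0.19. Adipoq (-0.19), Cfd (-0.25), Retn (-0.38), Plin1 (-0.07) and Cidec (-0.21) went the other way, Adrb3 (0.29) did not, and none of these passed. Mrc1 of the macrophage list rose by 0.84 in fasted knockout muscle (limma, adjusted p = 0.021). Cdh15 of the satellite cell list rose by 0.69 there (limma, adjusted p = 0.0274). Each of these lists had 0 calls in fed mice. Alternatives changed the background correction, scaling, filter, probe, blocks and arrays. The number of arrays limits the precision.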

Additional observations from a re-analysis of the deposited data

Results flagged for a closer look

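In groups of 4 arrays, 7 of 164 groups checked had 1 array whose gap to the nearest other exceeded Dixon's critical value for 4 values. Chance gives about 1 in 20. Among the 7 genes these were Tspan8 in fasted WT replicate 1 (3.186, nearest 3.488), Kcnab1 in fed mFoxO-TKO replicate 1 (-2.204, nearest -1.917) and Dnase1 in fasted mFoxO-TKO replicate 4 (-2.874, nearest -4.908). The dim Maats1 probe A_52_P375435 had such a value in fed WT replicate 1 (-5.516, nearest -6.747). Among genes of like pattern it was so for Pik3ip1 in fasted WT replicate 4 (4.027, nearest 4.487), Slc23a3 in fed mFoxO-TKO replicate 2 (-3.104, nearest -3.614) and Ccrl2 in fasted mFoxO-TKO replicate 1 (-1.479, nearest -1.848).

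The knockout difference itself differed between feeding states for 3 of 17 genes, the deleted genes and the passing genes of the lists, as tested by the interaction in limma. Genes of like pattern were left out, since fed arrays entered their choice. Fasted minus fed, the knockout difference was -1.645 ± 0.292 for Foxo1 (SE; limma, adjusted p = 0.00803). By the other Foxo1 probe it was -1.337 ± 0.359 and did not pass (limma, adjusted p = 0.0736). It was -1.797 ± 0.363 for Myc (limma, adjusted p = 0.0182) and 2.013 ± 0.318 for Aurka (limma, adjusted p = 0.00373). The list genes were named for passing in fasted or fed mice, on the same values that form this difference. Myc and Aurka passed in fasted mice alone, a choice that favours a gap between the states. The share of all genes passing this test is not given, so nothing is read from the count of 3.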

How the results depend on the processing

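The fasted knockout differences of Tspan8 and Kcnab1 kept their direction and call under all 14 alternatives run for each, with values of -3.99 to -3.48 and -3.08 to -2.55. No result reversed. Calls ended for Igf2bp3 within slide 1 (-2.42), within slide 2 (-1.71) and with normexp (-0.69), for Htra4 within slide 2 (-1.58), for Dnase1 within slide 2 (-2.20) and with normexp (-1.37), and for Maats1 with its other probe (0.83); within a slide only 2 mice per group remain, and otherwise the cause was not tested. Fam83d stayed short of the threshold under all 12 alternatives (-2.37 to -0.62, lowest adjusted p 0.0872 in limma). The number of genes passing was 2652, and 484 on slide 1 alone, 1567 on slide 2 alone and 1337 with the fasted arrays alone. With the replicate number as a block, 3611 genes passed and no call among the 7 changed. Leaving out each of the 16 arrays in turn changed no call: values ran from -3.82 to -3.59 for Tspan8, -3.05 to -2.69 for Kcnab1, -2.32 to -1.85 for Htra4, -2.29 to -1.81 for Igf2bp3, -3.13 to -2.30 for Dnase1, -2.08 to -1.09 for Fam83d and 3.45 to 3.85 for Maats1, with 2041 to 2755 genes passing. The authors' table holds Tspan8, Kcnab1, Htra4 and Dnase1 only, and Tspan8 and Kcnab1 alone were well above background on all 16 arrays, so these alternatives gave no value for the others. Signal over background limits Igf2bp3, Fam83d, Dnase1 and the WT level of Maats1.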

Other observations

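Kcnab1 shares chromosome 3 with Foxo1, with 43 tested genes between them, and Tspan8 shares chromosome 10 with Foxo3, with 421 between them in the RefSeq gene order. These windows were chosen after values were seen. Among the 100 tested genes around Foxo1, 15% passed in fasted and 3% in fed mice, around Foxo3 12% and 1%, and around Foxo4 16% and 3%. Around Kcnab1 the shares were 12% and 5%, and around Tspan8 10% and 0%. Over all genes they were 12.5% and 1.48%.

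Among the 10 tested neighbours of each of the 6 lower genes in the RefSeq order, 6 genes in all passed in fasted knockout muscle, where 12.5% of all genes did. Near Htra4, the growth factor receptor Fgfr1 fell by 1.56 (limma, adjusted p = 8.38e-05) and Tacc1 rose by 0.40 (limma, adjusted p = 0.0322). Near Kcnab1, Tiparp fell by 1.54 (limma, adjusted p = 0.00799). Gsdme, a gasdermin near Igf2bp3, rose by 0.87 (limma, adjusted p = 0.00665), and Adcy9, an adenylyl cyclase near Dnase1, fell by 0.65 (adjusted p = 0.0357). Tmem19 near Tspan8 rose by 0.51 (limma, adjusted p = 0.0251). None of these 6 passed in fed mice.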
